A study of Mus musculus with 16 samples.

Results

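The genes described here are 10 members of the NLRP family taken by symbol: Nlrp2, Nlrp4a, Nlrp4b, Nlrp4c, Nlrp4e, Nlrp4f, Nlrp9a, Nlrp9b, Nlrp9c and Nlrp14. All 10 were found among the 25965 genes of the RNA table, and all 10 passed the filter on low values that left 10518 genes for testing. The choice by name used no measured value, although earlier results of these data were known when it was made.

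The oocytes came from wild-type C57BL/6 mice (substrain C57BL/6Babr in the study's methods) and were separated by diameter into 10-30 µm (mice of postnatal day 5 to 7), 40-45 µm (day 7 to 12), 50-55 µm (day 9 to 14) and 60-65 µm (day 13 to 16), with germinal vesicle (GV) oocytes, the fully grown stage, from day 20. Strand-specific total RNA-seq gave 2 libraries, A and B, for each of the 4 size classes and is used here with 1 GV library. Reduced representation bisulphite sequencing (RRBS, which reads CpG-rich restriction fragments) gave 2 libraries for each of the 3 classes from 40-45 µm, and post-bisulphite adapter tagging (PBAT, which reads the whole genome) gave 1 library of 60-65 µm oocytes. Diameter and age of the mice rose together, so the effect of size and that of age cannot be told apart, and each library pooled oocytes. Nothing in the labels says whether libraries A and B came from separate mice, so the spread between them may be technical.

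NLRP proteins carry a pyrin domain, a nucleotide-binding NACHT domain and a run of leucine-rich repeats. Several members, such as NLRP3, are known as immune sensors that assemble inflammasomes, while others are made mainly in the female germline and are supplied by the oocyte to the early embryo. NLRP5, also called MATER, is the best known of the maternal group and belongs to the subcortical maternal complex, a protein assembly under the membrane of the egg and early embryo. The mouse genome holds several copies, Nlrp4a to Nlrp4g and Nlrp9a to Nlrp9c, of genes that are single in humans.

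On the GRCm38 build, 9 of the 10 genes lie on chromosome 7 and Nlrp4f lies on chromosome 13, at chr13:65177111-65205716. Nlrp9c (chr7:26322473-26403700), Nlrp4a (chr7:26435113-26476142) and Nlrp9a (chr7:26535023-26575615) are neighbours, with 31413 bases between the first pair, 58881 bases between the second and no other gene of the table in between. The other members stand apart on the chromosome: Nlrp2 at chr7:5298554-5351035, Nlrp4c at chr7:6045161-6105149, Nlrp4b at chr7:10687793-10730168, Nlrp9b at chr7:20008023-20073306, Nlrp4e at chr7:23301275-23362270 and Nlrp14 at chr7:107166990-107198102. Nlrp5 lies 23619 bases from Nlrp4e. In GENCODE annotation the members have 9 to 12 exons, with a longest exon of 1555 to 1603 bases in every member.

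The first 90 coding bases of the Nlrp4 and Nlrp9 copies are shown because reads of these copies can be hard to tell apart. The lines were read from the RefSeq GRCm38.p6 genome at the GENCODE start codon, 5′ to 3′, and capitals mark the bases that differ from Nlrp4c in the first 5 lines and from Nlrp9a in the last 3 lines.
Nlrp4c, chr7:6060595-6060684, plus strand: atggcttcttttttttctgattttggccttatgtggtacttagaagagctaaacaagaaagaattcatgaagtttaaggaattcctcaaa
Nlrp4e, chr7:23301282-23301371, plus strand: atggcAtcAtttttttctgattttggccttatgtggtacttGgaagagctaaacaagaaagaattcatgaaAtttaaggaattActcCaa
Nlrp4a, chr7:26444212-26444301, plus strand: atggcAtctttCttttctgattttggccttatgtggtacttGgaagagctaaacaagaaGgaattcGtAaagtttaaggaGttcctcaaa
Nlrp4f, chr13:65199353-65199442, minus strand: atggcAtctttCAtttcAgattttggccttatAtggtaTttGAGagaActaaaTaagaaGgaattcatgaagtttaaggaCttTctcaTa
Nlrp4b, chr7:10710126-10710215, plus strand: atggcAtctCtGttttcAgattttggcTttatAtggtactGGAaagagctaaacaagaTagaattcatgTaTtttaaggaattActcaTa
Nlrp9a, chr7:26550812-26550901, plus strand: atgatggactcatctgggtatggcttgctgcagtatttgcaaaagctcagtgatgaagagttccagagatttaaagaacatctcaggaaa
Nlrp9c, chr7:26394149-26394238, minus strand: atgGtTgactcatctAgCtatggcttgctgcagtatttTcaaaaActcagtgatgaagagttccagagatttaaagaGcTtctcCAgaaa
Nlrp9b, chr7:20019172-20019261, plus strand: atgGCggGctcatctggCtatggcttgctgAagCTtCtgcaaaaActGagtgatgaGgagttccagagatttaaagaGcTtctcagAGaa
Over this stretch Nlrp4e differed from Nlrp4c at 6 bases, Nlrp4a at 7, Nlrp4b at 14 and Nlrp4f at 15. Nlrp9c differed from Nlrp9a at 10 bases and Nlrp9b at 15.

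Across the whole coding sequence Nlrp4c and Nlrp4e were the most similar pair, with 93.9% of 2934 aligned bases identical. Nlrp9a shared 87.4% with Nlrp9c and 84.2% with Nlrp9b, and Nlrp9b shared 82.3% with Nlrp9c. Nlrp4a shared 86.3% with Nlrp4c and 85.9% with Nlrp4e. Nlrp2 and Nlrp14 were distant from each other, at 58.7%, and from every other member.

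RNA reads were 100 bases long and were each kept at no more than 1 place in the genome, so every 100-base window of each member's longest coding transcript was searched against the genome and all other GENCODE transcripts with up to 2 mismatches allowed. No window of the searched transcripts of Nlrp14 and Nlrp4b was found elsewhere. The share was 2.60% for Nlrp4a, 2.78% for Nlrp2, 4.68% for Nlrp9c, 5.08% for Nlrp9b, 6.60% for Nlrp4f and 6.77% for Nlrp9a. It was 18.7% for Nlrp4c and 60.6% for Nlrp4e, where 1609 of 3283 windows matched the transcript of Gm8486. The transcripts of Gm16443, Gm8685, Gm8728 and Gm4541 matched 42.4% to 46.4% of the Nlrp4e windows, and none of these genes is in the RNA table. Nlrp4c and Nlrp4e matched each other in 513 windows. The lengths implied by the deposited values ran from 3310 bases (Nlrp4e) to 5935 bases (Nlrp9c), so for Nlrp9c the searched transcript of 3216 bases is only a portion of what was counted. The same holds for Nlrp4b, with 3326 bases searched of an implied 4485, and to a smaller degree for Nlrp4a, Nlrp4c, Nlrp14, Nlrp9a and Nlrp9b, and the remaining bases were not searched. The levels of Nlrp4e, and to a smaller degree those of Nlrp4c, are therefore uncertain, since their reads could have been split among copies.

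**Figure D1:**
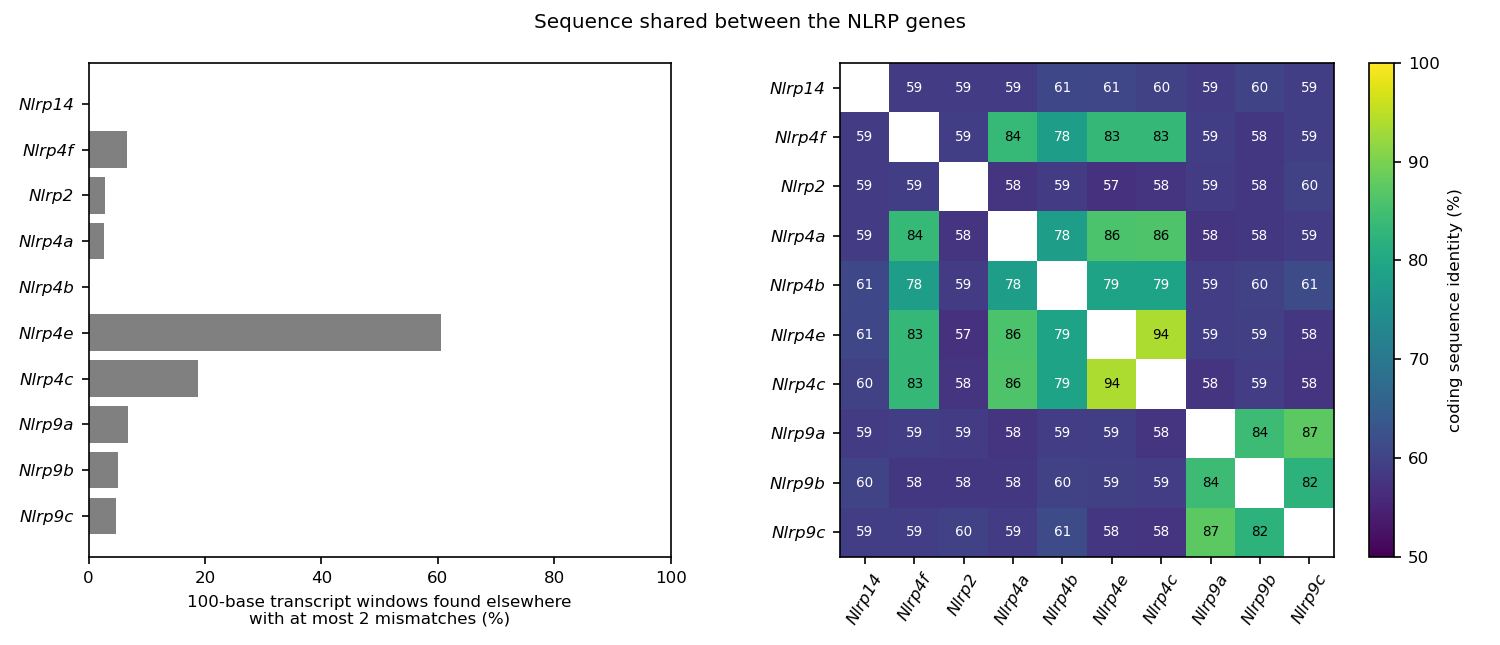
The left panel gives, for each NLRP gene, the percent of 100-base windows of its transcript that occur elsewhere with at most 2 mismatches; the right panel gives the percent identity of the coding sequences of each pair. Nlrp4e stands out at 60.6% of windows, and the Nlrp4 and Nlrp9 copies form separate blocks of high identity.

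The stretch just before the RefSeq start is shown for the 3 Nlrp9 genes, whose RNA changed most, and for Nlrp4c and Nlrp4a, 2 copies that moved in opposite directions. The sequences come from the RefSeq promoter table (GRCm38.p6), 5′ to 3′ on the strand of the gene, and capitals mark CCAAT and TATAAA on either strand. For Nlrp4a the stretch before the second of its RefSeq starts is given, which aligns with that of Nlrp4c.
Nlrp9a, chr7:26534773-26535022, plus strand: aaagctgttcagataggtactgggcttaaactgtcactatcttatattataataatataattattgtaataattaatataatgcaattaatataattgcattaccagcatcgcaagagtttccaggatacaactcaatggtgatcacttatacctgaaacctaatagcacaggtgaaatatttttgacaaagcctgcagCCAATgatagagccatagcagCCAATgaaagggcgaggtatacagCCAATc
Nlrp9c, chr7:26403701-26403950, minus strand: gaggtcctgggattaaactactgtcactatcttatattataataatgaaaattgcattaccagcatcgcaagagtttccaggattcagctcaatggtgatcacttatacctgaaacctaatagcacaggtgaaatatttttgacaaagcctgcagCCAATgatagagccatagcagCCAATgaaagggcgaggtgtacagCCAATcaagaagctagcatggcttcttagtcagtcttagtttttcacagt
Nlrp9b, chr7:20007773-20008022, plus strand: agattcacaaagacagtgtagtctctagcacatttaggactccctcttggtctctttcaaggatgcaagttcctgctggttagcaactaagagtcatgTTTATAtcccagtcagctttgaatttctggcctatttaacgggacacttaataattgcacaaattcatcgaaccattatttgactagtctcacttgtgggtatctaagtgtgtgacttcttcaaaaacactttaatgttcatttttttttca
Nlrp4c, chr7:6044911-6045160, plus strand: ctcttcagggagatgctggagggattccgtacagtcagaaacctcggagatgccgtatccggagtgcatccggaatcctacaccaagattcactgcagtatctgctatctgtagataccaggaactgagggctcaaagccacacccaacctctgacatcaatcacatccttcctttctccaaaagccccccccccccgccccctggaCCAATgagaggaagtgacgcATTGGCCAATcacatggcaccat
Nlrp4a, chr7:26435364-26435613, plus strand: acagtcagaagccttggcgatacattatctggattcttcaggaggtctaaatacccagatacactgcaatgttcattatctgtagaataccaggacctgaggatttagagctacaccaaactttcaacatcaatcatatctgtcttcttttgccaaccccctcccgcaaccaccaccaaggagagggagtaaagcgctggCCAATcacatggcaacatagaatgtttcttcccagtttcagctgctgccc
The Nlrp9a and Nlrp9c stretches were 96.1% identical over 203 aligned bases, and both held CCAAT 3 times, while the Nlrp9b stretch held no CCAAT and had TATAAA once. The Nlrp4a and Nlrp4c stretches were 76.1% identical over 213 bases. The table had rows for 9 of the 10 genes. Of these 9, 7 had CCAAT in at least 1 upstream stretch, 4 had it at least 2 times in a stretch and 3 had it at least 3 times, against 33.8%, 10.1% and 2.79% of all 32851 upstream stretches of the same length. TATAAA was in 1 of the 9, against 12.4% of all stretches. CAGCTG was found for 2 of the 9 members (13.001% of all stretches). The last motif searched, TAATTG, was also found for 2 (7.17%). The motifs were picked after the sequences were read, and the copies share ancestry, so the counts are a description of the letters only.

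RNA levels are given as deposited, in RPKM, which scales the reads of a gene to its length and to the size of the library, so levels can be compared between genes. In every library the values of the 51 to 93 single-exon olfactory receptor genes used fell on whole steps within 0.02 of a read, and from those steps the libraries held the equivalent of 99400000 to 198300000 counted reads. Each member was counted from 639 (Nlrp9c, 10-30 µm A) to 622848 reads (Nlrp14, 40-45 µm B). Before any test the libraries were scaled by factors of 0.956 to 1.05. The oocyte markers summed to 2523 to 3534 RPKM in the growing classes, against 0.238 to 0.363 RPKM for the 7 immune markers in the table, of which 3 were at 0 in all 8 libraries. The 9 granulosa markers summed to 0.768 to 0.800 RPKM at 10-30 µm and 2.57 to 2.98 RPKM at 60-65 µm. Foxl2 and Amh, which define granulosa cells, were at 0.281 RPKM or less in all 8 libraries. Foxl2 and Nr5a1 overlapped between these classes. Amh went from 0.0967 and 0.0907 RPKM to 0.2285 and 0.189 RPKM, and Fshr from 0.0436 and 0.0545 RPKM to 0.238 and 0.229 RPKM. Kitl, Hsd17b1 and Inhba were also higher in both 60-65 µm libraries than in both 10-30 µm libraries. The 2 that passed the filter, Inha and Cyp19a1, rose. This rise in granulosa markers went with the rise of the members described next, and its part in that rise was not tested. The 6 theca and stroma markers summed to 1.496 to 1.95 RPKM at 10-30 µm and 0.670 to 0.769 RPKM at 60-65 µm. Of the 4 endothelial and blood markers Pecam1 rose, from 0.531 to 0.567 RPKM at 10-30 µm to 4.19 to 4.70 RPKM at 60-65 µm. Hba-a1 was also higher in both 60-65 µm libraries, at 0.0817 RPKM or less, and Hbb-b1 overlapped between these classes. Cdh5 was at 0.0101 RPKM or less and was lower in both 60-65 µm libraries than in both 10-30 µm libraries.

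The RNA of 7 of the 10 members was higher in 60-65 µm than in 10-30 µm oocytes, 1 was lower, and 2, Nlrp14 and Nlrp4f, did not pass the test. Across all genes tested, 31.6% were higher and 31.7% were lower in the same comparison (63.3% in either direction), at an adjusted p under 0.05 in limma (moderated test with Benjamini-Hochberg adjustment over all 10518 genes). The median log2 change of the 10 members was 1.13, against 0.0020 for all genes. The largest changes were those of Nlrp9c (log2 change 3.99), Nlrp9b (2.81) and Nlrp9a (2.11), followed by Nlrp4a (1.53) and Nlrp2 (1.35).

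**Figure D2:**
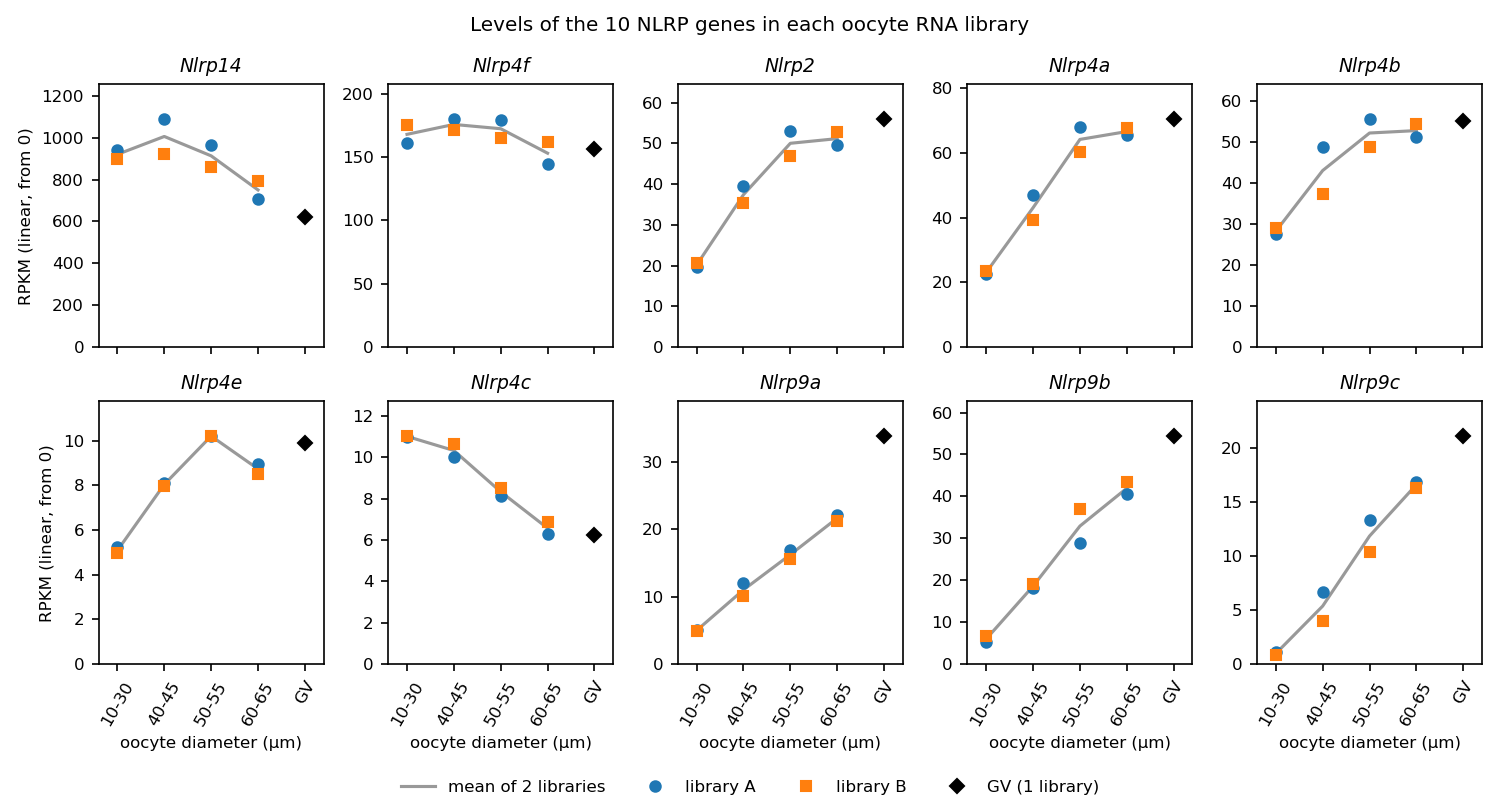
Each panel gives 1 NLRP gene's RPKM (linear axis from 0) in libraries A and B of the 4 size classes, the line through their means, and the 1 GV library. The 3 Nlrp9 genes and Nlrp2, Nlrp4a, Nlrp4b and Nlrp4e are lowest at 10-30 µm, Nlrp4c is highest there, and Nlrp14 and Nlrp4f stay high throughout.

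Nlrp14, which is needed for female fertility in mice, was by far the most abundant member. Its level was 941 and 901 RPKM at 10-30 µm, 1091 and 922 at 40-45 µm, 966 and 861 at 50-55 µm, 709.5 and 792 at 60-65 µm and 621 in the GV library. The gene ranked 4 or 5 of all 25965 genes in the 4 growing classes. Both 60-65 µm libraries were below all 6 earlier ones and the GV library was lower again, but the log2 change from 10-30 to 60-65 µm of -0.29 (SE 0.148, 95% interval -0.63 to 0.05) had an adjusted p of 0.115 in limma.

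Nlrp4f, whose protein is known to associate with the subcortical maternal complex, was the second most abundant member. It was measured at 161 and 175 RPKM at 10-30 µm, 180.1 and 171 at 40-45 µm, 179 and 165 at 50-55 µm, 144 and 161 at 60-65 µm and 156 in the GV library. The 60-65 µm libraries overlapped those of 10-30 µm and were both below those of 40-45 and 50-55 µm. The log2 change from 10-30 to 60-65 µm was -0.13 (SE 0.112, 95% interval -0.39 to 0.12), with an adjusted p of 0.330 in limma. Nlrp4f ranked between 40 and 56 of all genes in the growing classes. Of its 3452 windows 187 also occurred in Nlrp4g, a copy listed at 44.2 to 65.9 RPKM in the growing libraries and 68.7 RPKM in the GV library.

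Nlrp2, a maternal gene whose loss in mothers is known to impair early embryos, started lower. Its level was 19.8 and 20.5 RPKM at 10-30 µm, 39.5 and 35.3 at 40-45 µm, 53.1 and 47.0 at 50-55 µm, 49.6 and 52.8 at 60-65 µm and 56.1 in the GV library. The classes did not overlap up to 50-55 µm, while the 60-65 µm libraries lay within the range of the 50-55 µm libraries. The log2 change from 10-30 to 40-45 µm was 0.95 (SE 0.114, adjusted p = 0.00145, limma), and the further change to 50-55 µm of 0.39 had an adjusted p of 0.0679. The start of Nlrp2, on the minus strand, overlaps the gene Gm5065 on the plus strand, listed at 14.4 to 30.2 RPKM. Whether reads were counted by strand is not given in the sources used here, so reads of this stretch could belong to either gene.

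The 5 Nlrp4 copies did not move together. Nlrp4a was measured at 22.5 and 23.6 RPKM at 10-30 µm, 46.9 and 39.2 at 40-45 µm, 68.1 and 60.3 at 50-55 µm, 65.6 and 67.6 at 60-65 µm and 70.6 in the GV library. Nlrp4b was measured at 27.4 and 28.9, 48.7 and 37.3, 55.6 and 48.6, and 51.1 and 54.3 RPKM in the 4 classes in order of size, with 55.1 in the GV library. Both genes were lower in the 10-30 µm libraries than in all others, and their 60-65 µm libraries lay within the range of the 50-55 µm libraries. Nlrp4a changed by 1.53 on the log2 scale from 10-30 to 60-65 µm (SE 0.125, adjusted p = 2.37e-05, limma), and Nlrp4b by 0.90 (SE 0.148, adjusted p = 0.000911, limma).

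Nlrp4e and Nlrp4c, the most similar pair, went in opposite directions. Nlrp4e was measured at 5.21 and 4.94 RPKM at 10-30 µm, 8.08 and 7.99 at 40-45 µm, 10.2 in both libraries at 50-55 µm, 8.95 and 8.50 at 60-65 µm and 9.88 in the GV library. Nlrp4c was measured at 10.97 and 11.05 RPKM at 10-30 µm, 10.0 and 10.6 at 40-45 µm, 8.14 and 8.51 at 50-55 µm, 6.29 and 6.84 at 60-65 µm and 6.24 in the GV library. Nlrp4c was above Nlrp4e in both libraries at 10-30 and 40-45 µm and below it in all later libraries. From 10-30 to 60-65 µm Nlrp4e rose by 0.77 (SE 0.0956, adjusted p = 0.000196, limma) and Nlrp4c fell by 0.73 (SE 0.0930, adjusted p = 0.000219, limma), both on the log2 scale. Reads shared between the pair and with other copies were not separated here, and their part in these values was not tested.

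The 3 Nlrp9 genes rose most among the members, and Nlrp9c started from the lowest level. NLRP9B is known as a sensor of viral RNA in intestinal cells. Nlrp9a was measured at 5.06 and 4.86 RPKM at 10-30 µm, 11.95 and 10.05 at 40-45 µm, 16.9 and 15.5 at 50-55 µm, 22.2 and 21.2 at 60-65 µm and 33.9 in the GV library. Nlrp9b was measured at 5.28 and 6.58, 18.1 and 19.0, 28.9 and 36.9, and 40.5 and 43.4 RPKM in the 4 classes, with 54.5 in the GV library. Nlrp9c was measured at 1.08 and 0.827, 6.68 and 4.005, 13.3 and 10.3, and 16.8 and 16.3 RPKM, with 21.1 in the GV library. For each of these genes no class overlapped another, and every class stood above the class before it. The share of all genes that separated in this way was not counted.

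From 10-30 to 60-65 µm Nlrp9c changed by 3.99 on the log2 scale (SE 0.251, adjusted p = 9.18e-06, limma), which ranked 21 among the increases of the 10518 genes tested. Nlrp9b changed by 2.81 (SE 0.133, adjusted p = 5.71e-06, limma), and Nlrp9a by 2.11 (SE 0.122, adjusted p = 7.19e-06, limma). Nlrp9c passed from rank 8623 to rank 1011 of all genes in mean level, Nlrp9a from 3708 to 701 and Nlrp9b from 3157 to 279. The size of the Nlrp9c change depended on the pseudocount: the ratio of its class means was 17.4 and the fitted fold 15.9 with 0.1 RPKM, but 8.95 (log2 change 3.16) with a pseudocount of 1.

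By step, 7 members were higher at 40-45 than at 10-30 µm and none was lower, in a comparison in which 12.9% of all genes were higher and 10.2% were lower (23.2% in all). Without scaling of the libraries, 41.7% of the calls over all genes were higher, against 55.8% with it. The called members were Nlrp2, Nlrp4a, Nlrp4b, Nlrp4e, Nlrp9a, Nlrp9b and Nlrp9c, with log2 changes from 0.66 (Nlrp4b) to 2.39 (Nlrp9c; 1.71 with a pseudocount of 1). The call of Nlrp4b was lost without library A of either class and where the fit used only these 2 classes. From 40-45 to 50-55 µm 4 members were higher, Nlrp9c (log2 change 1.14), Nlrp9b (0.78), Nlrp4a (0.55) and Nlrp9a (0.53), and no member was called lower, against 5.71% of all genes higher and 3.35% lower (9.06% in all). Their adjusted p ran from 0.0172 to 0.0353 in limma, and this step depended on single libraries, for all genes as for the members. As reported, 601 genes were higher and 352 lower. Without 40-45 µm B or without 50-55 µm A 0 members and 0 of all genes were called, and without 50-55 µm B 0 members were, with 196 genes higher and 61 lower. Without 60-65 µm A 1 member, 343 higher and 170 lower genes were called, and without 60-65 µm B 1 member, 338 higher and 167 lower. With no filter on low values 1 member was called, with 383 genes higher and 132 lower. With the library letter as a replicate block 7 members were called, 6 higher and 1 lower (Nlrp4c), with 1059 genes higher and 817 lower.

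From 50-55 to 60-65 µm no member was called, and the share of all genes called was also 0% in either direction. At an unadjusted p under 0.05 in limma, 4 members and 1443 of the 10518 genes differed. The largest member values at this step were log2 changes of 0.47 for Nlrp9c, 0.38 for Nlrp9a and 0.33 for Nlrp9b upward, and -0.37 for Nlrp4c and -0.31 for Nlrp14 downward. The unadjusted 95% interval for Nlrp9a ran from 0.10 to 0.66 and that for Nlrp4c from -0.58 to -0.16, neither of which held 0.

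**Figure D3:**
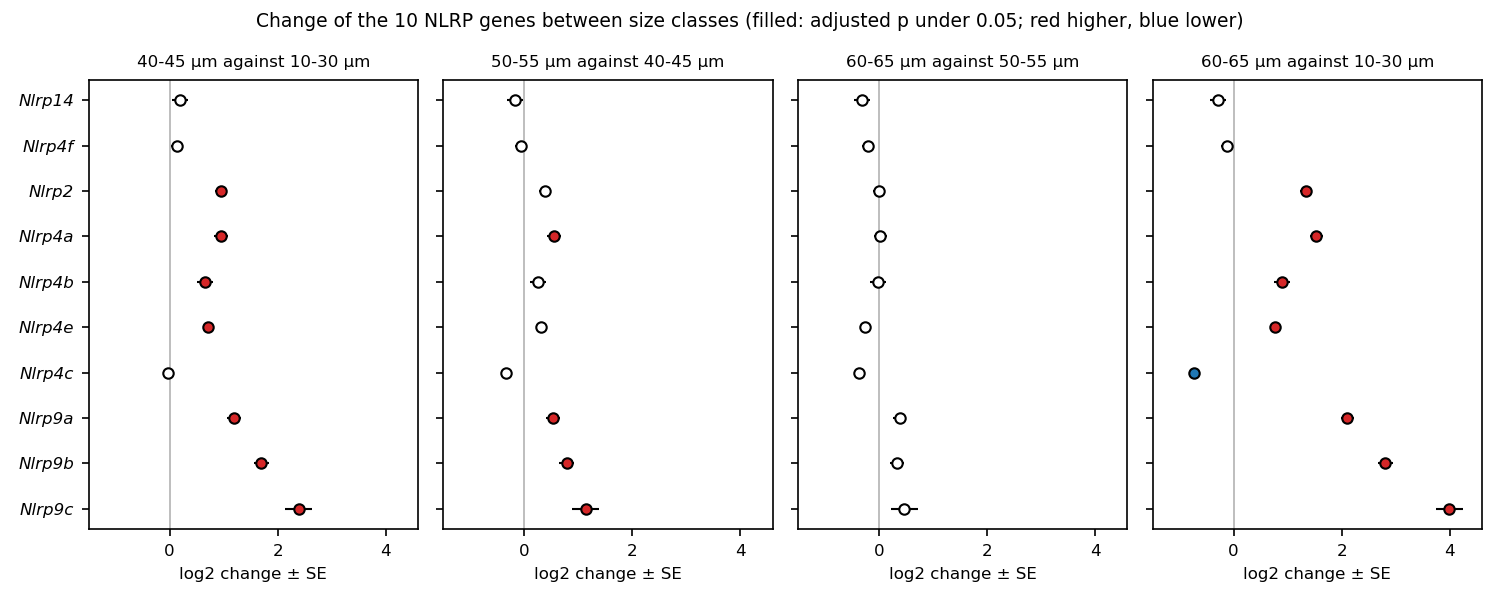
Log2 change of each NLRP gene with its standard error in the 4 comparisons (8 libraries in 1 limma fit); filled points have an adjusted p under 0.05, red for higher and blue for lower. The called genes number 7, 4 and 0 in the successive steps and 8 over the whole of growth, where Nlrp9c lies farthest to the right and Nlrp4c is the gene on the left.

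The ratio of 2 genes within a library does not depend on the scaling of libraries, and was tested over the order of the size classes by a two-sided exact permutation test over all 2520 arrangements of the 8 libraries, with Benjamini-Hochberg adjustment over the 45 pairs. Among neighbours, the Nlrp9c to Nlrp9a log2 ratio moved from -2.27 at 10-30 µm to -0.38 at 60-65 µm (exact p = 0.00238, adjusted p = 0.00298). The Nlrp9a to Nlrp4a log2 ratio moved from -2.19 to -1.62 (exact p = 0.00317, adjusted p = 0.00376), and Nlrp9c to Nlrp4a changed by 2.47 (exact p = 0.000794, adjusted p = 0.00112), where the exact p is the smallest this design can give. The neighbours thus moved in the same direction by unequal amounts. The Nlrp4c to Nlrp4e log2 ratio moved from 1.10 to -0.41 (exact p = 0.00159, adjusted p = 0.00204). In all, 43 of the 45 pairs had an adjusted p under 0.05 in this exact test, and the same number had an unadjusted p under 0.05, against 67.5% of all pairs of the 10518 genes. Most pairs of genes thus passed this test, whether members or not. The member pairs that did not were Nlrp4f to Nlrp14 (change in log2 ratio 0.16, exact p = 0.0913, adjusted p = 0.0933) and Nlrp4e to Nlrp4b (-0.13, exact p = 0.520, adjusted p = 0.520).

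The order of the members by level was much the same through growth at its upper end, with Nlrp14 first, Nlrp4f second and Nlrp4a, Nlrp4b and Nlrp2 next. Within each library Nlrp2 was below Nlrp4b in all 8 growing libraries and below Nlrp4a in all 8, although their ranges over libraries overlapped in some classes. Nlrp4a and Nlrp4b could not be ordered at 40-45 µm, where they changed places between the libraries. Nlrp2 was above Nlrp4b in the 1 GV library. At the lower end Nlrp9c was last at 10-30 µm and eighth at 60-65 µm, where Nlrp4e and Nlrp4c were the lowest. The places of Nlrp4e and Nlrp4c hold for the deposited values only, since reads shared with other copies leave their levels uncertain.

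No member differed by 2-fold or more between the GV library and 60-65 µm oocytes in scaled values, and 0.399% of all genes were higher and 0.266% lower by that rule. There is 1 GV library, so the difference has no replicate check. After the same scaling of the libraries 7 members were above both 60-65 µm libraries in the GV library and 1, Nlrp14, was below both, against 41.2% and 39.6% of all 10518 genes. In the deposited values 7 were above both and 2, Nlrp14 and Nlrp4c, below both, against 35.1% and 46.2% of all genes. Nlrp9a was furthest from its 60-65 µm mean, at 1.57-fold in the deposited values, followed by Nlrp9b at 1.299-fold and Nlrp9c at 1.27-fold, while Nlrp14 was at 0.828-fold.

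Of the 16 genes directly beside a member that are not members themselves, 10 were under 0.1 RPKM in all 8 libraries, against 48.1% of all genes in the table. The levels of these neighbours are given over the 8 growing libraries, without GV unless it is named. Among these, Olfr716, an olfactory receptor gene beside Nlrp14, and Vmn1r71, a vomeronasal receptor gene beside Nlrp4b, were listed at 0 in all 8 libraries, and Cyp2a4, beside Nlrp9c, was at 0.0161 RPKM or less. Of the other 6, Gm5065 was described with Nlrp2, Gm4567 beside Nlrp4e was at 0.256 RPKM or less, and Zfp787 beside Nlrp4c was at 1.06 to 1.59 RPKM. Rbmxl2, 11343 bases from Nlrp14 on its other side, was at 3.39 to 4.86 RPKM, with 2.36 in the GV library. Ceacam20, 16910 bases from Nlrp9b, ranged from 0.130 to 1.80 RPKM, with 3.83 in the GV library. Nlrp5, next to Nlrp4e, was at 290.1 to 451 RPKM, with 247 in the GV library. Its log2 change from 10-30 to 60-65 µm was -0.48 (adjusted p = 0.00518, limma), opposite in sign to that of Nlrp4e.

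Of 22 other NLR genes drawn up for comparison, 20 were in the table, 13 were under 0.1 RPKM in all 8 libraries, as were 48.1% of all genes in the table, and 4 passed the filter. Between 10-30 and 60-65 µm 3 of these 4 rose, Nod2 by 1.90, Naip1 by 1.87 and Nlrp4g by 0.42 on the log2 scale, and Nlrp5 fell. Among partners with which other NLRP proteins form inflammasomes, Pycard, the adaptor, was at 0.0287 RPKM or less and Casp1, the protease, at 0.0126 or less. These levels and those below are over the 8 growing libraries, without GV. Of the 13 inflammasome genes 7 were under 0.1 RPKM in all 8 libraries, a share near that of all genes. The 4 that passed the filter were Txnip, a regulator of redox state, at 108 to 149.996 RPKM, Nek7, a kinase that binds NLRP3, at 1.89 to 3.55, Ripk2, a kinase downstream of NOD receptors, at 2.87 to 3.72, and Casp8, a protease of cell death, at 0.951 to 1.67. Casp8 rose and Nek7 fell between 10-30 and 60-65 µm. Of the 5 genes of the subcortical maternal complex in the table, 3 were called lower over the same interval, Nlrp5, Padi6 and Ooep, and none was called higher. Their median log2 change was -0.48. Zbed3, which was not called, was at 75.4 and 180 RPKM at 10-30 µm and at 197 and 212 RPKM at 60-65 µm. Of 8 oocyte transcription factors, Obox5 rose and 4 fell, among them Figla, Sohlh1 and Sohlh2, which act early in folliculogenesis. In this comparison 31.6% of all tested genes were higher and 31.7% were lower, so the counts of these short lists are a description only.

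The genes closest in pattern to each member are given by the Pearson correlation of log2(RPKM + 0.1) over the 8 libraries, which share library, depth and scaling, and carry no test. Nlrp9c was closest to Upp1 (r = 0.9997), Obox5 and Abcb1b, Nlrp9a to Bmp5, Sebox and Slc4a8, and Nlrp9b to Gpr35, Ceacam10 and Gm20649. Nlrp4a was closest to Mat1a, Bmp15 and Slco5a1, Nlrp2 to Amotl1, Rnase6 and Gtf2a1l, Nlrp4b to Olfr206, Mier3 and Rgs17, and Nlrp4e to Zmat4, CT009546.1 and Lect2. Nlrp4c was closest to Haghl, Cadps2 and Optn, Nlrp14 to Morc1 (r = 0.970), Gm14288 and Ndfip2, and Nlrp4f to Ttc32 (r = 0.958), Vps54 and Jmjd5. Bmp15, a growth factor secreted by oocytes, and Sebox and Obox5, oocyte homeobox genes, are known members of the oocyte programme.

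In 60-65 µm oocytes, when DNA methylation is still being laid down over transcribed genes, 9 of the 10 gene bodies were methylated to between 39.0% and 70.2%, and the tenth, that of Nlrp14, to 19.1%. The values are means over CpG cytosines that PBAT covered 5 times or more, from 1 kb past the start to the end of the gene, and there is 1 library, so the intervals below cover counting error only. Genes at 5 RPKM or more in the same class had a median of 47.7% (lower to upper quartile 34.7% to 57.3%, 3172 genes), and genes under 0.1 RPKM a median of 8.17%. Nlrp4e had 70.2% over 272 positions (95% Wilson interval of its pooled calls 68.9% to 72.8%), above 96.6% of the genes at 5 RPKM or more. Nlrp4c had 60.8% over 165 positions, above 82.8% of them.

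Nlrp9a, Nlrp4a, Nlrp4f, Nlrp2, Nlrp4b and Nlrp9b lay between 44.6% and 49.8%, with 10 (Nlrp4f) to 161 (Nlrp9b) positions, and Nlrp9c had 39.0% over 172 positions. Nlrp14, the most abundant transcript of the group, had 19.1% over 26 positions, with 42 of 214 calls methylated (95% Wilson interval 14.9% to 25.5%), above 8.98% of the genes at 5 RPKM or more. Its interval did not meet that of any other member. Around the start, within 1 kb, Nlrp2 had 1.43% over 7 positions, Nlrp4c 16.04% over 7 and Nlrp4e 62.9% over 7. For Nlrp14 0 of 20 calls there were methylated (95% Wilson interval up to 16.1%). Nlrp4a and Nlrp4f had 2 and 1 such positions, and Nlrp4b and the Nlrp9 genes had none with 5 reads. With 1 read a position as the minimum, Nlrp2 had 10.8% over 21 positions, Nlrp4c 13.5% over 49, Nlrp4e 57.8% over 17 and Nlrp14 7.02% over 38. The listed start of Nlrp4e, chr7:23301275, lies just before its start codon at 23301282. Whether oocytes start the gene there was not tested. In the 20 kb before the start, methylation was 79.9% over 64 positions for Nlrp4b, 40.6% over 22 for Nlrp4e and 39.6% over 64 for Nlrp2. It was 26.7% over 22 for Nlrp9b and 26.5% over 14 for Nlrp9c. Nlrp4c had 14.3% over 10, Nlrp14 14.02% over 20, Nlrp4a 12.9% over 6, Nlrp9a 8.79% over 11 and Nlrp4f 6.16% over 18.

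**Figure D4:**
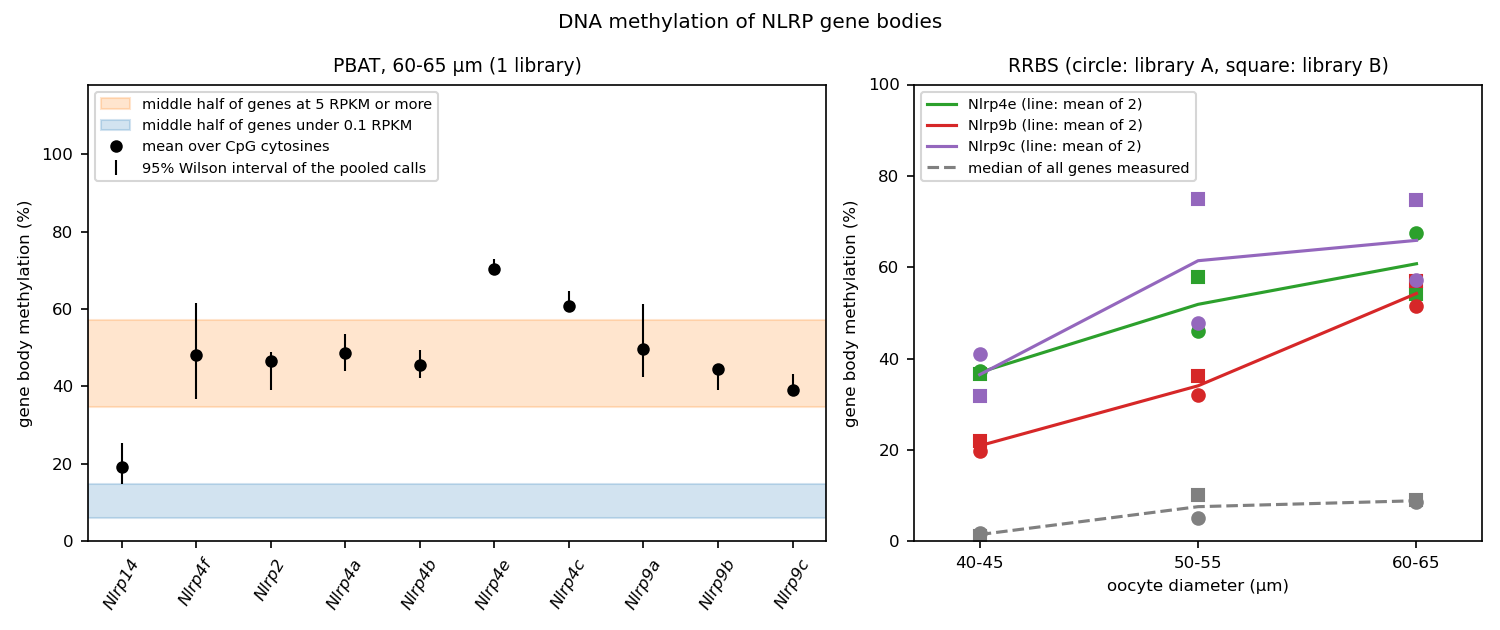
Left, gene body methylation of each NLRP gene in the 1 PBAT library of 60-65 µm oocytes (points, mean over CpG cytosines; bars, 95% Wilson interval of the pooled calls), with bands from the lower to the upper quartile of genes at 5 RPKM or more and under 0.1 RPKM. Right, RRBS gene body methylation of Nlrp4e, Nlrp9b and Nlrp9c in libraries A (circles) and B (squares) with lines through the means, above the dashed median of all 9487 genes measured. Nlrp14 lies below the upper band, and the plotted means of the 3 RRBS genes, from positions with 5 reads or more, go up with diameter from a level above the median of all genes.

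RRBS covered few positions of these genes, and 3 of the 10, Nlrp4e, Nlrp9b and Nlrp9c, had at least 3 positions with 5 reads in all 6 libraries. Nlrp4e was at 37.3% and 36.6% in 40-45 µm oocytes, 46.0% and 57.8% at 50-55 µm and 67.5% and 54.1% at 60-65 µm. Nlrp9b was at 19.9% and 22.0%, 31.9% and 36.2%, and 51.6% and 57.0% in the same classes, and Nlrp9c at 41.1% and 31.9%, 47.9% and 75%, and 57.1% and 74.6%. For all 3 genes both 60-65 µm libraries were above both 40-45 µm libraries, which also held for 65.0% of the 9487 genes measured and 87.2% of the 1645 of these at 5 RPKM or more. The libraries did not cover the same positions. With 3 reads a position as the minimum, the order of the classes did not hold for Nlrp9c, whose 40-45 µm A value was then 62.5% over 11 positions, above the 57.1% of 60-65 µm A. Pooled over calls instead of averaged over positions, Nlrp9c was at 16.8% and 26.6%, 36.6% and 75%, and 44.0% and 52.6% in the 3 classes, so its level depended on how its few positions were combined. On the 4 Nlrp9c positions measured in all 6 libraries, an alternative added after the data were seen, methylation was 67.9% and 51.9%, 73.1% and 75%, and 78.6% and 90% in the 3 classes. On the 13 such positions of Nlrp4e it was 33.6% and 37.0%, 47.3% and 60.9%, and 75.01% and 62.9%, and on the 2 of Nlrp9b 33.9% and 29.7%, 53.5% and 54.3%, and 65.2% and 70%. With 2 libraries a class no test was made, and the Nlrp9b and Nlrp9c values rest on 3 to 7 positions.

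The 3 genes were already well above most others at 40-45 µm. The median over the 9487 genes measured in all 6 libraries was 1.74% and 1.23% in that class, and 99.4% and 99.2% of them lay below Nlrp4e, 98.0% and 97.9% below Nlrp9b and 99.5% and 98.9% below Nlrp9c. RRBS favours CpG-rich sequence, and CpG density was not matched between these genes and the others. At 60-65 µm the median was 8.66% and 9.12% over all genes and 31.1% and 31.7% over the 1645 genes at 5 RPKM or more. In the soft-masked genome, where repeats are in lower case, 5 of 7 Nlrp9c positions and 4 of 6 Nlrp9b positions of the 40-45 µm A library lay in repeats, at means of 57.5% and 28.5%, and the 2 positions of each gene outside repeats were at 0% and 2.73%. In the 40-45 µm B library the Nlrp9c positions were at 44.7% in repeats and 0% outside them, and those of Nlrp9b at 24.1% in repeats and 13.6% at the 1 position outside them. Repeats made up 57.1% of the span of Nlrp9c and 57.7% of that of Nlrp9b. In the PBAT library of 60-65 µm oocytes the means were 35.7% in repeats and 45.7% outside them for Nlrp9c, and 41.9% and 58.2% for Nlrp9b. For Nlrp4e 17 of 18 positions of the 40-45 µm A library lay outside repeats, at 35.3%. Whether repeats or copies of the genes elsewhere in the genome set these levels was not tested. Nlrp4f had a single position, which went from 1.41% and 0% to 9.20% and 14.1% and then 42.6% and 18.8%.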

How the data were processed

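RNA values are the deposited RPKM per gene, made by the authors from 100-base paired reads trimmed with Trim Galore 0.2.8 and aligned to GRCm38 with TopHat2 2.0.9 (at most 1 location a read). The study's methods name SeqMonk and Cufflinks for RNA-seq, but not which of them made this table. RRBS and PBAT files hold, per CpG cytosine, the percent and the counts of methylated and unmethylated calls deposited by the authors (Trim Galore 0.3.5, Bismark 0.14.0 and 0.10.0). No column of another series was found. Genes at 0.5 RPKM or more in 2 of 8 libraries were tested in 1 fit of log2(RPKM/scale + 0.1) with limma 3.58.1 (R 4.3.3) and a variance trend, after scaling by a trimmed mean of log ratios, with adjusted p under 0.05 as threshold. GV values were compared without a test. On simulated data with 10518 genes for 60-65 against 10-30 µm, 98.5% of 67 changes of 1 and 34.8% of 66 changes of 0.5 on the log2 scale were called. So were 12 unchanged genes. Far fewer genes changed in the simulation than the 63.3% called in the data, so these shares need not hold for the data. Methylation used positions with 5 reads or more, and sequence windows and alignments were computed with Python 3.11.15 and Biopython 1.88. Every member is named, with the 4 other NLR genes that passed the filter, the 3 genes most alike in pattern, and direct neighbours, of which those under 0.1 RPKM are named only in part, picked after their values were seen. The inflammasome, maternal complex, transcription factor and marker genes named one by one were picked from their lists after their values were seen. Members and lists were chosen with earlier results of these data known. Alternatives were another pseudocount, filter, scaling, fit and coverage minimum, and each library left out.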

Additional observations from a re-analysis of the deposited data

How the results depend on the processing

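The 8 members called between 10-30 and 60-65 µm numbered 8 under every alternative run, and 41 to 43 of the 45 pairs held with 1 library left out. Between 10-30 and 40-45 µm 6 to 7 members were called, and all genes higher and lower numbered 687 and 430 with these 2 classes only (1360 and 1077 as reported), 546 to 1612 and 295 to 1479 with 1 library left out, and 1088 and 1521 without scaling. Between 40-45 and 50-55 µm, where 4 members, 601 higher and 352 lower genes were reported, no filter on low values gave 1 member, 383 higher and 132 lower, these 2 classes only gave 2 members, 519 higher and 370 lower, and no scaling gave 6 members, 679 higher and 346 lower, with Nlrp2 (adjusted p 0.0430) and Nlrp4e (0.0443) added. With 1 library left out this step gave 0 to 6 members (0 to 5 higher, 0 to 1 lower), 0 to 943 genes higher and 0 to 742 lower. Between 50-55 and 60-65 µm a pseudocount of 1 gave 8 genes higher and none of the members. The cause of these differences was not tested.

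The deviations of libraries A and B correlated at 0.59 to 0.67 among the 3 smaller classes, where the letters thus shared a component. Between these classes and 60-65 µm they correlated at -0.23, -0.025 and 0.11. The labels do not say that a letter marks a shared batch or animal, and the main fit did not take the letters as pairs. With the letter as a replicate block, 7 members (6 higher, 1 lower; added were Nlrp2 with an adjusted p of 0.0355, Nlrp4e with 0.0384 and, lower, Nlrp4c with 0.0363), 1059 higher and 817 lower genes were called between 40-45 and 50-55 µm, and 165 higher and 80 lower genes between 50-55 and 60-65 µm.

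Changes near 0 reversed in sign. Between 50-55 and 60-65 µm Nlrp4b was at 0.019 without scaling and, with 1 library left out, ranged from -0.11 to 0.090, Nlrp2 from -0.090 to 0.099 and Nlrp4a from -0.068 to 0.12. Nlrp4c ranged from -0.070 to 0.010 between 10-30 and 40-45 µm, and Nlrp4f from -0.12 to 0.0089 between 40-45 and 50-55 µm. Of the recomputed log2 changes of members 515 kept direction and side of the threshold, 26 lost their call, 9 gained one and 10 reversed. The median gene body methylation of the members in the PBAT library was 42.0% with 1 read a position as the minimum, against 47.4% with 5 reads. In the PBAT library the starts of 4 members had no position with 5 reads, and in RRBS the bodies of 5 members had none in any library.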
